A study of Mus musculus with 6 samples.

Results

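The respiratory chain of mitochondria is built from 2 genomes. Its complexes I, III, IV and V combine subunits translated inside the organelle from the mitochondrial DNA with subunits encoded in the nucleus and imported, while complex II is entirely nuclear-encoded. The mitochondrial genome is transcribed by the polymerase Polrmt with the packaging and transcription factor Tfam, as long precursor transcripts that are processed into rRNAs, tRNAs and mRNAs, and it is copied by the DNA polymerase Polg with the helicase Twnk. Resting T cells draw on respiration, and both T cell activation and memory formation are known to change mitochondrial mass and function.

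The transcripts examined were 46 genes of this system out of 56246 in the table: 13 mitochondrially encoded mRNAs, 29 nuclear-encoded subunits and 4 nuclear genes of mtDNA upkeep and transcription. They were chosen by symbol, with the differences between conditions already known from the same libraries, so the contrast of the conditions is given for them as a description. CD4+ T cells of spleen and lymph nodes were compared between 3 cKO mice and 3 Control mice. The cKO genotype was U5-52Kf/f with CD4-Cretg. Among the Control mice, CTRL_1.2 and also CTRL_3.4 carried U5-52Kwt/f with CD4-Cretg, and CTRL_5.6 carried U5-52Kf/f with CD4-Cre-, so that Cre was present in the cKO mice and in only part of the Control group. The CD4-Cre transgene removes the floxed U5-52K allele during thymic development, before the cells reach spleen and lymph node. The mice were male young adults, and the cells were sorted as CD4+ CD8- from pooled spleen and lymph nodes, per the study's methods.

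All values below are counts divided by a DESeq2 size factor ("normalized counts"), and log2 fold changes are cKO minus Control on the scale of log2(normalized count + 1). Values of single libraries follow the order CTRL_1.2, CTRL_3.4, CTRL_5.6 and KO_7.8, KO_9.10, KO_11.12. The 6 libraries held 56995121 to 82286366 reads in genes. Cd2bp2, which encodes U5-52K, lay between 2602 and 2624 in Control and between 738 and 884 in cKO (log2 fold change -1.65, SE 0.11, limma adjusted p = 0.00137). The summed 8 markers of CD4+ T cells overlapped, with 440137 to 510451 in Control and 415633 to 449113 in cKO. Among them, Cd3e (48742 to 58550 in Control, 38946 to 44737 in cKO) and Cd28 (26394 to 27848 and 18427 to 23388) were lower in every cKO library. The others, such as Cd4, overlapped. The summed markers of CD8+ T cells ranged from 614 to 1571 over the 6 libraries. KO_7.8 stood apart, with 31204 for the sum of 6 myeloid markers against 8014 to 12244 in the other libraries, and 12412 for 6 markers of cycling cells against 4018 to 5928. Of the 6 myeloid markers, Fcgr3 (97.6 to 151 in Control, 177 to 225 in cKO) and Cst3 (6070 to 7389 and 7747 to 16076) were higher in every cKO library. The other myeloid markers overlapped. B cell markers summed to 8501 to 11276 in Control and to 4067 to 7620 in cKO, while Cd79b and Cd22 of these 5 markers overlapped. Erythroid markers, mostly the globin genes Hba-a1 and Hba-a2, summed to 3511 in CTRL_5.6 and 2635 in KO_7.8 against 140 to 426 in the other libraries. The summed NK cell markers overlapped (2001 to 2861 in Control, 2794 to 3958 in cKO), and of the 3 markers Ncr1 (86.4 to 114 against 220 to 344) and Klre1 (46.9 to 64.2 against 82.1 to 162) were higher in every cKO library.

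Several mitochondrial genes lie so close that they share bases, which matters for what a count per gene can separate. The overlaps of 3 pairs of mRNAs are printed from the GENCODE M21 transcripts (GRCm38, chromosome M, plus strand), with the shared bases in capitals after the 12 bases that precede them.
ATP8 and ATP6: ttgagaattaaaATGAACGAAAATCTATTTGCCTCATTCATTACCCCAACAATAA
ND4L and ND4: caacctactacaATGCTAA
ND5 and ND6: tcttatactcaaTTAATCTCGAGTAA
ATP8 and ATP6 share 43 bases (7927 to 7969), which are 21.1% of ATP8. ND4L and ND4 share 7 bases (10167 to 10173). ND5 and ND6 lie on opposite strands and share 14 bases (13552 to 13565), and no source used here says whether counting used strand. Shorter overlaps are not printed: ATP6 ends at base 8607, where COX3 starts. COX1 ends at base 6872, past the lower end (6870) of the tRNA gene mt-Ts1 on the minus strand.

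The mitochondrially encoded mRNAs were lower in cKO throughout. For each of the 13, every cKO library lay below every Control library, whereas 11.5% of the 11001 genes tested did so. Log2 fold changes ran from -0.94 for ND3 to -0.50 for CYTB, with a median of -0.62, beside a median of 0.01 over all genes tested. By limma, 8 of the 13 passed an adjusted p of 0.05 in this direction, compared with 0.300% of all genes, and edgeR on whole reads passed 9 (0.355% of all genes) and DESeq2 all 13 (3.98% of all genes). Since this contrast chose the genes, nothing further is read from these counts. The calls also depend on the number of libraries: without CTRL_1.2 or CTRL_3.4, or without KO_9.10 or KO_11.12, limma passed 0 of the 13, without CTRL_5.6 it passed 1 and without KO_7.8 it passed 6, while the median log2 fold change stayed between -0.67 and -0.62.

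**Figure D1:**
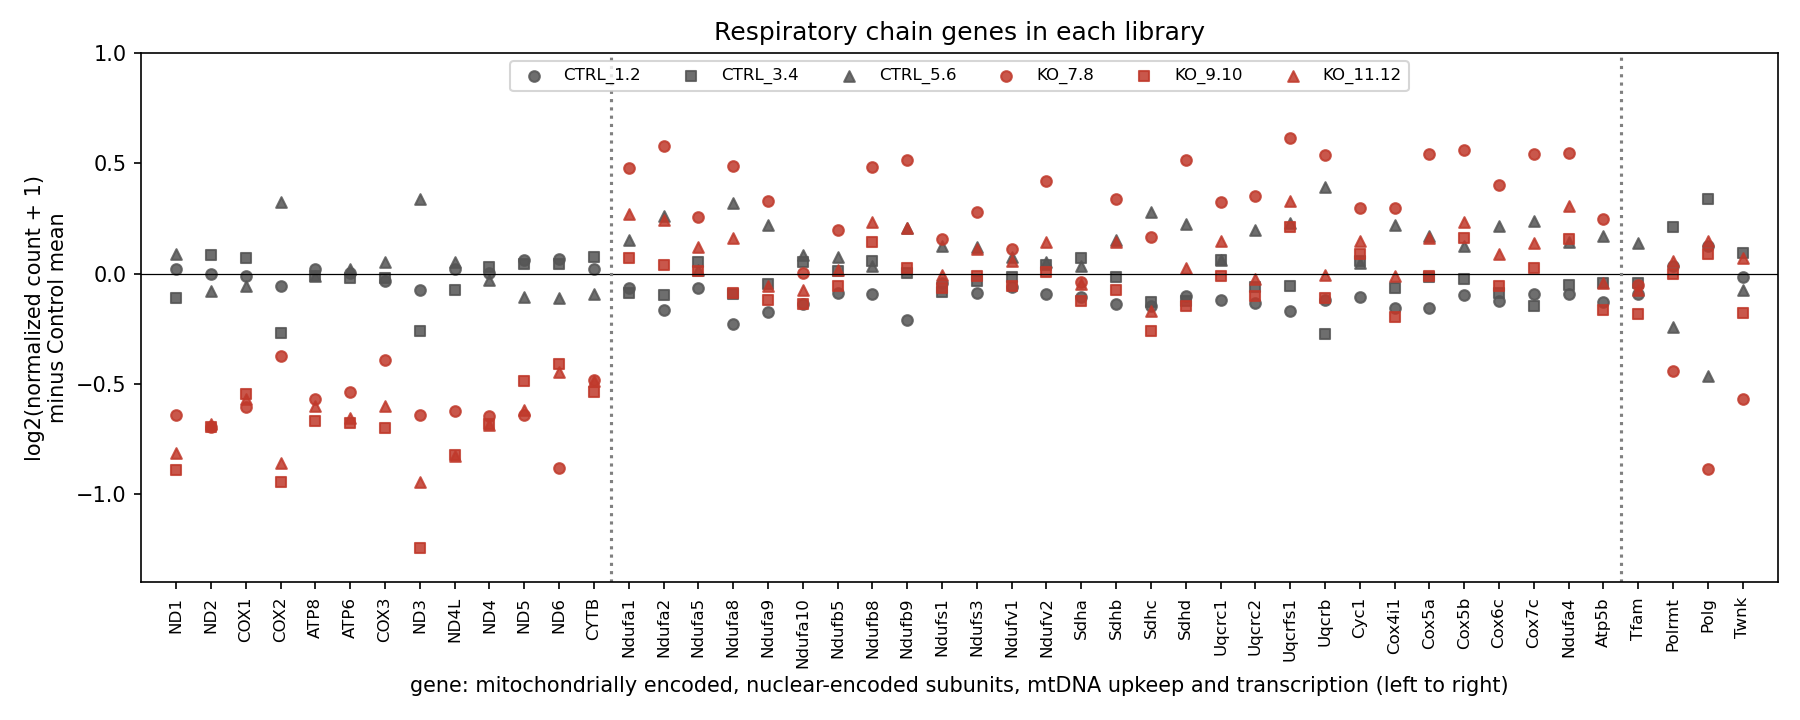
Distance of each gene from its Control mean, on the scale of log2(normalized count + 1), with 1 point per library (Control grey, cKO red). The 13 mitochondrially encoded genes on the left lie lower in all cKO libraries, the 29 nuclear-encoded subunits in the middle scatter around or above 0 with KO_7.8 mostly highest, and the 4 upkeep genes on the right overlap.

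In complex I, the NADH dehydrogenase, ND1 had 45115, 41231 and 47371 normalized counts in Control and 28556, 24017 and 25345 in cKO (log2 fold change -0.78, SE 0.10). ND2 had 16288, 17291 and 15431 in Control and 10065, 10080 and 10177 in cKO (-0.69, SE 0.08). The cKO libraries of ND2 differed by far less among themselves than from any Control library.

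ND4, the most abundant of the complex I mRNAs by count, had 53483, 54417 and 52245 in Control and 34149, 33243 and 33193 in cKO (-0.67, SE 0.07). ND4L had 7568, 7069 and 7729 in Control and 4835, 4211 and 4203 in cKO (-0.76, SE 0.09). ND5 had 24801, 24530 and 22091 in Control and 15232, 16942 and 15471 in cKO (-0.58, SE 0.09). The groups were well separated for these 3 genes, and limma called each of them.

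ND3 and ND6 were noisier. ND3, the least abundant of the 13, had 735, 645 and 978 in Control and 496, 326 and 402 in cKO (-0.94, SE 0.22). ND6, the only mRNA of the 13 on the minus strand, had 7330, 7214 and 6474 in Control and 3800, 5268 and 5132 in cKO (-0.58, SE 0.14). KO_7.8 was the highest cKO library for ND3 and the lowest for ND6, and neither gene passed the limma test.

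CYTB, the cytochrome b of complex III, had 377021, 390610 and 347840 in Control and 265880, 255903 and 264755 in cKO (-0.50, SE 0.10). It was the highest of the 13 by count and had the smallest fall, and it did not pass the limma test. In complex IV, cytochrome c oxidase, COX1 had 224585, 237976 and 217526 in Control and 148954, 155267 and 152795 in cKO (-0.57, SE 0.09). COX1 passed.

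COX2 had 65710, 56635 and 85429 in Control and 52711, 35452 and 37578 in cKO (-0.73, SE 0.20). COX3 had 137714, 138908 and 146018 in Control and 107377, 86561 and 92804 in cKO (-0.57, SE 0.11). For both genes KO_7.8 was the cKO library nearest to Control, and neither passed the limma test.

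In complex V, the ATP synthase, ATP6 had 256093, 252410 and 259486 in Control and 176399, 160236 and 162336 in cKO (-0.62, SE 0.09). ATP8 had 51453, 50333 and 50327 in Control and 34222, 31940 and 33403 in cKO (-0.61, SE 0.08). Both passed, and their Control libraries were the tightest among the 13 relative to the mean. Per kilobase of exon, Control means ran from 2258 for ND3 to 375912 for ATP6, so that levels among the mRNAs spread far more widely than their changes did.

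In the composition of the mitochondrial mRNA pool, the shares of the most abundant mRNAs moved little in comparison. CYTB made up 29.3% ± 1.5 (SD, n = 3) of the normalized counts of the 13 mRNAs in Control and 31.0% ± 0.773 in cKO, and ATP6 made up 20.2% ± 0.441 and 19.6% ± 0.311. Relative to Control, the shares of ND3 (0.0620% against 0.0480%) and ND1 (3.51% against 3.06%) moved most, with overlap. The shares overlapped between the conditions for 11 of the 13 genes. ND4 (4.21% against 3.96%) and ND4L (0.588% against 0.521%) were the exceptions, with every cKO library lower.

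The 13 mRNAs took 1.897%, 1.802% and 1.755% of the reads in genes in Control and 1.1999%, 1.207% and 1.178% in cKO. The mean was 1.82% ± 0.0722 (SD, n = 3) in Control and 1.19% ± 0.0153 in cKO, and KO_7.8 did not stand apart from the other cKO libraries in this share. The 29 nuclear-encoded subunits took 0.440%, 0.447% and 0.491% in Control and 0.540%, 0.455% and 0.475% in cKO, with the groups overlapping. The summed count of the mitochondrial genes was 4.31, 4.03 and 3.58 times that of the nuclear subunits in Control and 2.22, 2.65 and 2.48 times in cKO. Every cKO library thus had a lower ratio than every Control library. The summed B cell markers were lower in every cKO library as well, although Cd79b and Cd22 singly overlapped. The T cell markers Cd3e and Cd28 were also lower in every cKO library. The NK cell markers Ncr1 and Klre1 and the myeloid markers Fcgr3 and Cst3 were higher in each. The part of these markers' cells in the result was not tested. In bulk RNA, fewer cells of a type and less RNA per cell cannot be told apart.

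**Figure D2:**
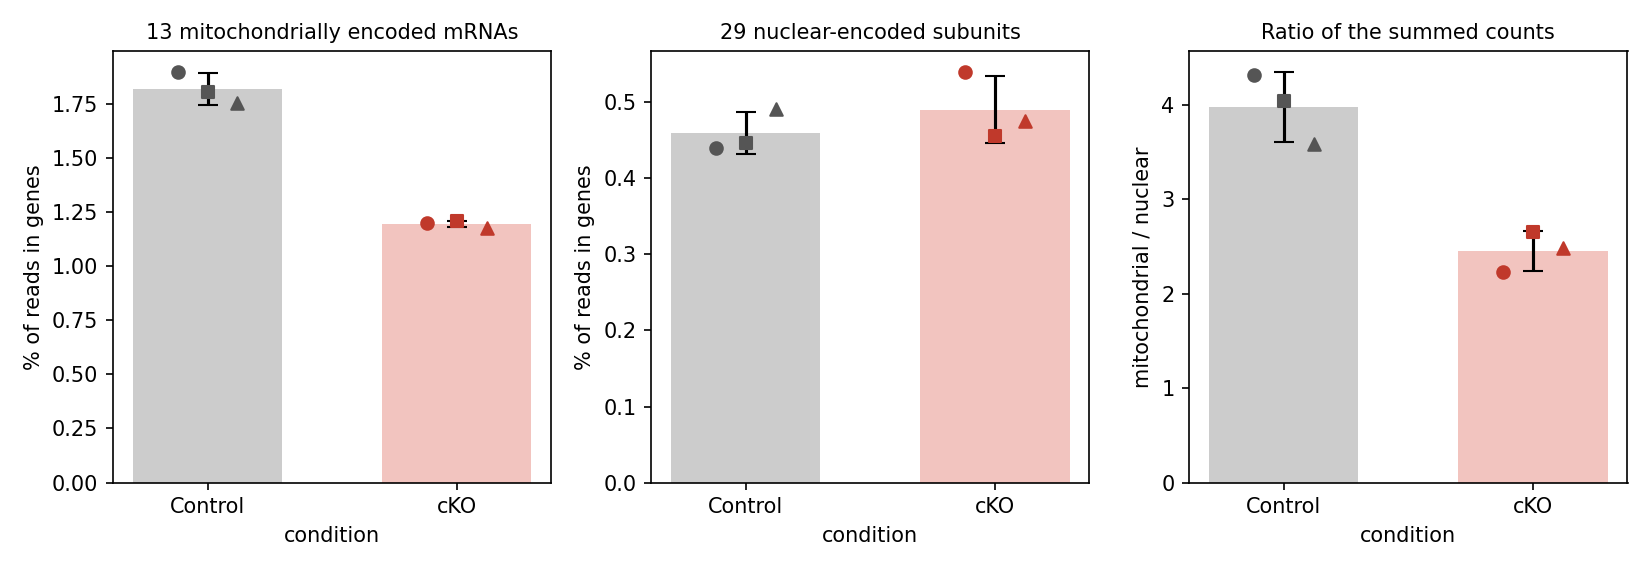
Share of reads in genes taken by the 13 mitochondrially encoded mRNAs (left) and by the 29 nuclear-encoded subunits (middle), and the ratio of their summed normalized counts (right). Bars are means of 3 libraries, error bars the SD and points the libraries: the mitochondrial share is 1.755% to 1.897% in Control and 1.178% to 1.207% in cKO, while the nuclear shares overlap.

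The rRNAs of the same genome, which are no members and carry no symbol in the table, overlapped between the conditions. mt-Rnr2, the large rRNA, had 124400, 133757 and 116866 in Control and 118246, 116697 and 104476 in cKO. mt-Rnr1, the small rRNA, had 7949, 6841 and 10220 in Control and 10425, 6902 and 4536 in cKO. The 13 mRNAs together had 10.2, 9.56 and 10.8 times the count of mt-Rnr2 in Control and 7.46, 7.02 and 8.02 times in cKO. The difference between mRNAs and rRNAs was not tested. The libraries were made with a low-input RNA kit, per the study's methods. How well it captures rRNAs was not examined, so these ratios are not read as amounts in the cells. Of the tRNAs, mt-Ts1 was low and lay below Control in every cKO library, with 37.7, 36.6 and 57.9 in Control and 30.5, 26.1 and 25.9 in cKO. mt-Tp overlapped, with 1103, 1132 and 782 in Control and 353, 1083 and 1100 in cKO. The remaining 20 genes of the mitochondrial genome had a mean normalized count under 10.

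**Figure D3:**
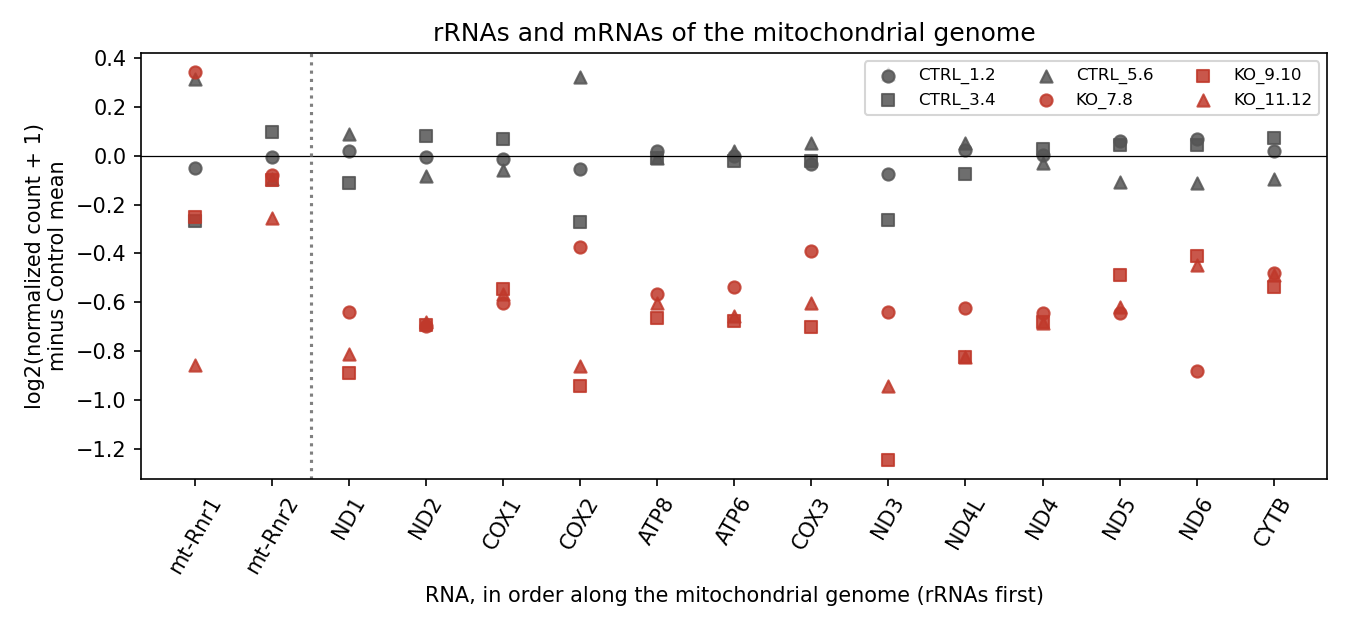
Distance from the Control mean, on the scale of log2(normalized count + 1), for the 2 rRNAs and 13 mRNAs in their order along the mitochondrial genome, 1 point per library. The rRNAs at the left overlap between Control (grey) and cKO (red), and the mRNAs do not.

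Part of the counts of the mitochondrial mRNAs is shared with near-identical copies in the nuclear genome. A stretch of chromosome 1 (24611535 to 24616197) carries annotated copies of COX1, COX2, ATP6, COX3, ND3, ND4L and ND4. The copy of COX2, Gm28661, is identical over 681 aligned bases and had 1.0007 to 1.0012 times the count of COX2 in the 6 libraries. The chromosome 1 copies together held 0.979% of the reads in genes in Control and 0.628% in cKO, so they moved with the mitochondrial genes, and their counts cannot be told apart from those of the mitochondrial RNAs. ND1 and ATP8 had no nuclear copy of at least 90% identity over 100 bases among annotated transcripts, but ATP8 lies between COX2 and ATP6, which are both copied in the chromosome 1 stretch. The copies found for ND2, ND5, ND6 and CYTB had at most 0.0207 times the count of the mitochondrial gene, and these 4 genes and ND1 were lower in cKO like the rest.

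The nuclear-encoded subunits did not share the fall. None of the 29 passed the limma test in either direction, against 0.300% of all genes lower and 0.673% higher. On simulated counts limma called 18% of changes of 1.5-fold, so a count of 0 does not show that the subunits were alike. In 26 the log2 fold change was positive, the median was 0.14 and the range -0.09 to 0.39. For 4 of them every cKO library lay above every Control library, compared with 12.6% of all genes, and for none was every cKO library below. KO_7.8, the library with high myeloid and cycling markers, was also the highest in the nuclear set, with a median distance from the Control mean of 0.35 against -0.05 in KO_9.10 and 0.12 in KO_11.12. Without it the median log2 fold change of the subunits was 0.04. CTRL_5.6, the other library with high erythroid markers, had the highest distance among the Control libraries (0.15), and without it the median was 0.21. CTRL_5.6 was also the only Control library without Cre, so its genotype and its erythroid markers cannot be told apart here. The part of those cells, or of that genotype, in the result was not tested.

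In complex I, Ndufb8, an accessory subunit, had 6551, 7256 and 7138 in Control and 9755, 7704 and 8195 in cKO (0.29, SE 0.11), with no overlap. Ndufa2 had 6982, 7338 and 9400 in Control and 11692, 8060 and 9272 in cKO (0.29, SE 0.17), and Ndufa1 had 5500, 5424 and 6404 and then 8035, 6056 and 6950 (0.27, SE 0.13). The groups overlapped for these 2.

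Complex II, succinate dehydrogenase, has no mitochondrial subunit. Sdhb, its iron-sulfur subunit, had 15937, 17392 and 19544 in Control and 22167, 16685 and 19398 in cKO (0.14, SE 0.13). Sdhd and Sdhc, the membrane anchors, had log2 fold changes of 0.13 (SE 0.19) and -0.09 (SE 0.16). All 4 genes of the complex overlapped between the conditions.

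In complex III, Uqcrfs1, the Rieske iron-sulfur protein, had 7384, 7979 and 9726 in Control and 12734, 9607 and 10438 in cKO (0.39, SE 0.15). CTRL_5.6 lay above KO_9.10, so the groups overlapped for the subunit with the largest difference. Cyc1, cytochrome c1, had 10079, 11282 and 11220 in Control and 13319, 11540 and 12010 in cKO (0.18, SE 0.09), without overlap. Uqcrc1, a core protein, had a log2 fold change of 0.15 (SE 0.11).

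In complex IV, Ndufa4, first described as part of complex I, had 8136, 8390 and 9598 in Control and 12706, 9676 and 10750 in cKO (0.34, SE 0.12). Cox5b had 6358, 6697 and 7420 in Control and 10047, 7627 and 8008 in cKO (0.32, SE 0.13). Neither overlapped, and Cox7c did (0.24, SE 0.17). Atp5b, the catalytic beta subunit of complex V, had 32348, 34388 and 39872 in Control and 41966, 31588 and 34360 in cKO (0.01, SE 0.14).

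The genes that transcribe and copy the mitochondrial genome overlapped between the conditions. Tfam had 3624, 3749 and 4256 in Control and 3729, 3404 and 3677 in cKO (-0.10, SE 0.10). Polrmt had 3376, 3817 and 2784 in Control and 2428, 3297 and 3427 in cKO (-0.13, SE 0.17). Both differences were within the spread between libraries.

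Polg had 6310, 7311 and 4197 in Control and 3134, 6154 and 6415 in cKO (-0.22, SE 0.32). Twnk had 2056, 2215 and 1972 in Control and 1401, 1838 and 2184 in cKO (-0.22, SE 0.17). KO_7.8 was the lowest library for both, as it was for Polrmt.

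Beyond the members, 353 genes of 9 further lists could be tested, with the same low power for small changes, and 1 passed the limma test. This was Slc25a4, the ADP/ATP carrier that also affects mtDNA stability, with 14106, 14330 and 14810 in Control and 25238, 19995 and 22424 in cKO (0.64, SE 0.10, limma adjusted p = 0.0495). Its call held in 5 of 14 alternatives, with adjusted p between 1.59e-06 and 0.242, and it was lost when any of the 6 libraries was left out. Among 51 further respiratory chain subunits none passed, the median log2 fold change was 0.20, and the smallest p belonged to Cycs, cytochrome c (0.51, limma adjusted p = 0.123), and Ndufa7 (0.53, limma adjusted p = 0.172). None of 46 assembly factors passed (median 0.01), with Cox14 at 0.30 and Coa3 at 0.24.

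None of 82 genes of the mitochondrial ribosome passed (median 0.10), where Aurkaip1 had 0.35 and Mrps14 0.31. Among 45 genes of mitochondrial transcription and RNA processing none passed (median -0.05). The rRNA methyltransferases Mrm1 (-0.49, limma adjusted p = 0.0882) and Nsun4 (-0.49, limma adjusted p = 0.118) had the smallest p of that list. Among 18 regulators none passed (median -0.16), with Myc at -0.53 and Nrf1, a transcription factor of respiratory genes, at -0.30.

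None of 24 genes of the TCA cycle and pyruvate entry passed (median 0.05), with the pyruvate dehydrogenase kinases Pdk2 at -0.33 and Pdk1 at -0.58. None of 22 glycolytic genes passed (median 0.06), where the hexokinase Hk3 had 1.23 and the lactate transporter Slc16a1 -0.40. Hk3 was low, with 52.8, 50.7 and 56.6 in Control and 142, 136 and 105 in cKO. Only its cKO mean reached the mean count required for testing, so little is read from the size of its fold change. Of 42 genes of import and proteostasis none passed (median 0.08), with the import chaperone Timm9 at -0.68 (limma adjusted p = 0.0710) and Tomm40 at 0.33.

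Over the 353 genes, 29 (8.22%) had every cKO library below every Control library and 34 (9.63%) had every cKO library above, beside 11.5% and 12.6% of all genes. By list, those below were 10 of 45 in transcription and RNA processing, 5 of 23 in mtDNA maintenance, 5 of 22 in glycolysis, 4 of 24 in the TCA cycle, 4 of 18 regulators, 1 of 42 in import and proteostasis, and 0 in the other three lists. Those above were 10 of 51 further subunits, 8 of 82 in the mitochondrial ribosome, 7 of 42 in import and proteostasis, 3 of 23 in mtDNA maintenance, 3 of 22 in glycolysis, and 1 or 0 in each of the others.

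Splicing was not used to choose the genes and was tested, since U5-52K is a splicing factor. In 28 nuclear genes of the set, 206 events averaged 20 reads or more in each condition, and the mitochondrial genes, which have no introns, had none. With edgeR's test of form by condition, the test planned for this comparison, 0 of the 206 events passed an FDR of 0.01 and a difference of 10 points, compared with 0.0590% of all 55912 events. At an unadjusted p under 0.05 there were 10, or 4.85% of the 206, compared with 7.22% of all events. The planned test had little power on simulated data, so a count of 0 does not show that splicing was alike.

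A difference of at least 10 points was reached by 2 of the 206 events, or 0.971%, compared with 3.72% of all events. Both are events of the same 104-base exon of Ndufs1 (GRCm38, chromosome 1, 63172154 to 63172257, minus strand), singled out after its values were seen. The exon lies upstream of the coding sequence and belongs to 2 of the annotated transcripts. The libraries of a condition are not named in the splicing tables. In the first event inclusion was 53.2%, 49.8% and 39.1% in Control and 26.5%, 29.03% and 33.0% in cKO, from 170 to 244 reads per library. In the second, with another first exon, it was 39.5%, 38.2% and 39.1% in Control and 27.7%, 17.3% and 27.8% in cKO. The groups did not overlap in either event, but the share of all events without overlap is not given here, so nothing is read from this. The 2 events share the reads over the exon itself and so are not independent.

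The means differed by -17.8 and -14.7 points, and the two-sided exact permutation test gave p = 0.1 for each, the smallest that 3 against 3 libraries allow. In the remaining event with this exon, the upstream neighbour (63175637 to 63175688) was itself tested as a skipped exon in other events. Inclusion of the Ndufs1 exon in this remaining event was 91.4%, 89.0% and 87.3% in Control and 88.3%, 80.9% and 84.0% in cKO, with overlap. Whether the Ndufs1 shift counts as called depends on the test. The planned edgeR test gave an FDR of 0.682 for both events. A version with the dispersion estimated apart by the abundance of the rarer form gave 0.366 and 0.455, and a quasi-binomial model gave 0.00712 and 0.0136, so that 1 event passed in it, beside 0.465% of all events. These 2 versions were written after the calls of the planned test had been seen, the last after those of both others, so its call is no independent support. The Ndufs1 count itself had a log2 fold change of 0.03 (SE 0.10).

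**Figure D4:**
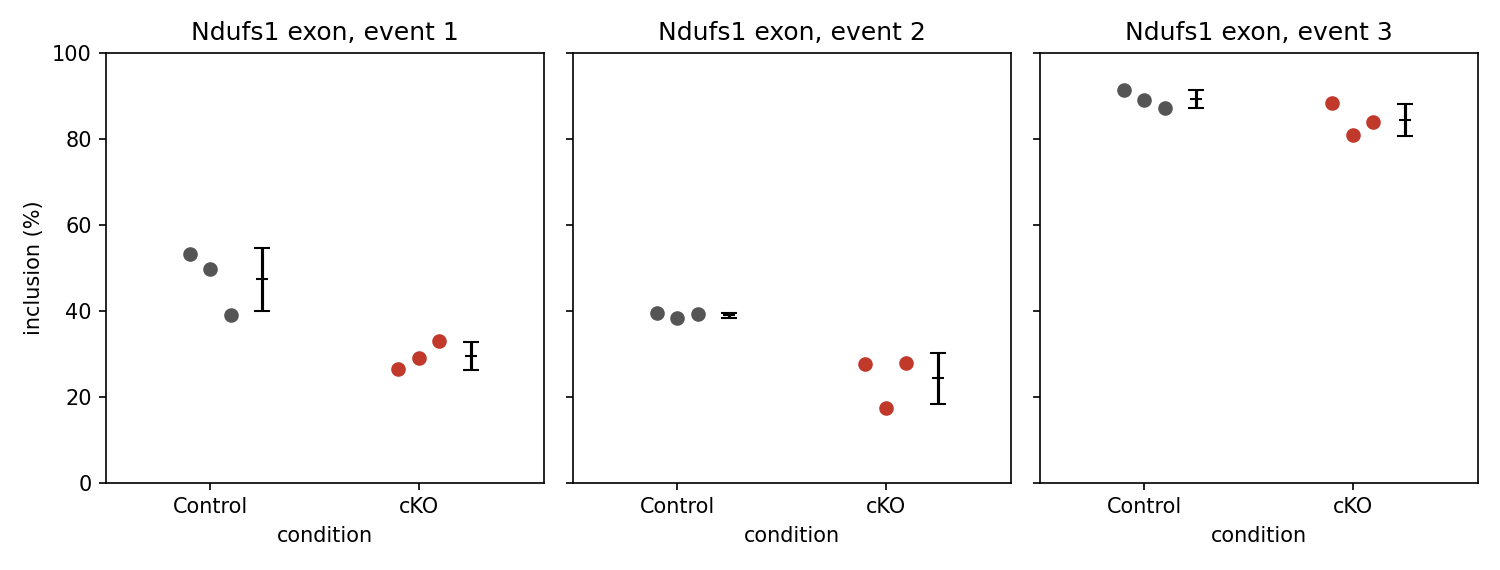
Inclusion (%) of the Ndufs1 exon in its 3 skipped exon events, with points for the 3 Control (grey) and 3 cKO (red) libraries and the mean with SD beside them. Inclusion is lower in all cKO libraries in the first and second event (means 47.3% against 29.5% and 38.9% against 24.3%) and overlaps in the third panel.

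In the other members shifts were small. Polrmt came next, with a largest difference of 6.72 points, followed by Ndufa9 (5.41), Polg (4.37) and Ndufa10 (3.63). The median absolute difference was 0.155 points over the 206 events and 0.713 points over all events.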

How the data were processed

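Adapters were removed with cutadapt, reads mapped to GRCm38 with STAR and genes counted with featureCounts by the authors, who deposited these counts after division by DESeq2's size factors, a signal per gene and library. All values came out as whole reads within 0.01, and edgeR and DESeq2 were run on those reads. Splicing came from the deposited rMATS counts of inclusion and skipping reads, 3 per condition without library names. The authors' deposited comparison (fold changes and p-values) was not used.

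limma 3.58.1 was run over the 11001 genes that carry a symbol and average 100 or more in Control or cKO, on log2(normalized count + 1), with Benjamini-Hochberg adjustment. On simulated counts for these genes, the fit called 18% of changes of 1.5-fold, 58% of 2-fold and 98% of 4-fold. Libraries were grouped as cKO or Control by their labelled genotype, so Control held both of its genotypes. The limma p-values set the difference of means against the variance between libraries, moderated toward a trend over all genes tested. They rest on 3 libraries per condition.

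Splicing was tested with edgeR 4.0.16, an interaction of form and condition with library as a term, as planned. Tested on simulated skipped exons, it recovered none of the shifted events at the FDR used. Afterwards 2 further versions were written (dispersion by the rarer form, and quasi-binomial), with the real calls of the planned test known. At the FDR used they recovered few or none of the simulated shifts. At an unadjusted p under 0.05 they found 84% and 80% of the 20-point shifts, against 14% for the planned test. Of the unshifted events 1.71% and 2.68% reached that p, against 3.61% for the planned test. Because they were written with the real calls known, the planned test was kept and they are alternatives only.

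Members and gene lists were chosen with earlier results of these data known. Named were the mitochondrial and upkeep members, per complex up to 3 nuclear subunits of largest absolute difference, and of each further list up to 4 genes past the test or else the 2 of smallest p.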

Additional observations from a re-analysis of the deposited data

How the results depend on the processing

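The number of members called, 8 by limma, was 5 without a filter on the mean and 13 by DESeq2 on whole reads, and 0 to 6 when a library was left out. It stayed within 1.5 times under the other alternatives (a pseudocount of 10, a filter of 100 applied to both conditions, TMM, size factors from nuclear genes, edgeR, robust variances). No member was called higher in any of them. The median log2 fold change of the mitochondrially encoded members lay between -0.67 and -0.62 and that of the nuclear-encoded subunits between 0.04 and 0.24 over the libraries left out. The mitochondrial share, lower in cKO by a difference of -0.623 points, ranged from -0.667 to -0.584 over all its alternatives. The 1 call among the other genes of the pathway, Slc25a4, was lost (0 calls) with the filter of 100 applied to both conditions, without a filter and with robust variances. Among these genes edgeR called 2 and DESeq2 22, and leaving out a library gave 0 to 1 calls, the 1 being Slc25a36 without KO_7.8. Splicing calls in members were 0 with 10 reads as the minimum, limma on the log2 ratio of forms, an FDR of 0.05, edgeR with the dispersion by the rarer form and each library left out, and 1 (Ndufs1) under the quasi-binomial model, chosen after seeing the data. No paired analysis was possible because the labels give the conditions no shared replicate numbers. The number of libraries, 3 per condition, limits what both tests can detect.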
